A study of Mus musculus with 6 samples.

Results

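The report covers 45 genes of antioxidant defence, iron handling and ferroptosis in mouse brain tissue after stroke. They were taken by gene symbol from a list, with no measured value in the rule. All 45 were found among the 56748 genes of the deposited count table, and all 45 were among the 17584 genes that passed the filter on low counts. RNA was sequenced from 3 libraries of mice given PLEA nanoparticles and 3 libraries of mice given saline. Both groups were male wild-type C57 mice in which a clot had been made in vessels of the left hemisphere by light (photothrombosis), with an intravenous agent at 100 mg/kg and a 532 nm laser of 250 mW and 1.5 mm diameter for 5 minutes. PLEA or saline (100 µL) went into the tail vein 2 hours later, and tissue described as infarcted cortex was taken for the day 3 time point after perfusion with buffer. The labels give no age, do not name the intravenous agent or spell out PLEA, and do not say whether each library is a separate animal. No unlesioned tissue was analysed here. The comparison asks how the expression of these genes differed after PLEA.

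Totals were between 16810448 and 17516434 counts per library, and the 45 genes held between 0.360% and 0.459% of them. Levels below are in CPM, read counts divided by library size on a common scale, with trimmed-mean (TMM) factors. All 8 cortical excitatory neuron markers were detected, with summed levels of 1102 to 1818 CPM in PLEA libraries and 1060 to 1496 CPM in saline libraries, and striatal markers were present at 866 to 1907 CPM in PLEA libraries and 193 to 1828 CPM in saline libraries. The 8 meninges markers summed to 49.3 to 68.4 CPM in PLEA libraries and 120 to 159 CPM in saline libraries, without overlap, and all 8 were lower in PLEA at an unadjusted p under 0.05, though none passed. Their part in the results below was not tested. Saline replicate 2 was the library with 193 CPM of striatal markers. It also had the highest sum of oligodendrocyte markers, 5668 CPM, against 2931 to 4063 CPM in the other libraries. Saline replicate 1 stood apart in microglia and macrophage markers, and was also highest in astrocyte and endothelial markers. Its microglia markers summed to 781 CPM, against 268 and 343 CPM in the other saline libraries and 140 to 408 CPM in PLEA libraries. Its macrophage markers summed to 633 CPM, against 60.6 and 70.5 CPM in the other saline libraries and 28.1 to 127 CPM in PLEA libraries. Its astrocyte markers summed to 5651 CPM, against 3386 to 4323 CPM in the other libraries of both groups. Its endothelial markers summed to 401 CPM, against 232 to 298 CPM in the others. For genes of the 45 whose log2 fold change moved by more than 0.1 without that library, the value without it is given too. Such a value is not a truer one, since other libraries also moved the fold changes. Without saline replicate 2, some were lower (Gpx4 -0.30, Ftl1 -0.40, Slc40a1 -0.86, Hmox1 1.38) and others higher (Gpx3 0.44, Sod2 0.07) than with all libraries. In bulk tissue, fewer cells of a type and less RNA per cell cannot be told apart.

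Cells meet oxidants with a linked set of enzymes, much of it under the transcription factor Nrf2 (Nfe2l2), which the adaptor Keap1 marks for degradation until oxidants modify Keap1. Cystine import feeds glutathione synthesis, and the selenoenzyme Gpx4 uses glutathione to reduce lipid peroxides in membranes. Ferroptosis is an iron-dependent form of cell death in which these peroxides build up. After a stroke, haem and iron from blood and dying cells reach the tissue, where haem oxygenase opens the haem ring, ferritin stores the iron and ferroportin exports it.

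Iron also sets the fate of several of these mRNAs through the iron response element, a short hairpin bound by iron regulatory proteins when iron is scarce. Binding in the 5′ untranslated region blocks translation, and binding in the 3′ untranslated region protects the mRNA, so mRNA counts can reflect iron status in the transferrin receptor but only weakly in ferritin. The elements below are shown because they mark the ferritin and transferrin receptor genes, whose mRNA values follow. They were read from GENCODE M21 transcripts (GRCm38). The search was for a C, any 5 bases, CAGTGN and any 5 bases, on the transcript strand, with the 5 bases on either side of the loop able to pair. The capitals mark the bulged C and the CAGTG of the loop, whose last base (N) is in lower case.
Fth1 element, 5′ untranslated region, exon 1, chr19:9982738-9982754 plus strand: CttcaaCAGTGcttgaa
Ftl1 element, 5′ untranslated region, exon 1, chr7:45459785-45459801 minus strand: CttcaaCAGTGtttgaa
Tfrc element, 3′ untranslated region, exon 19, chr16:32631225-32631241 plus strand: CggaagCAGTGccttcc
Tfrc element, 3′ untranslated region, exon 19, chr16:32631604-32631620 plus strand: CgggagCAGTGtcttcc
Tfrc element, 3′ untranslated region, exon 19, chr16:32631669-32631685 plus strand: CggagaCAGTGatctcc
Tfrc element, 3′ untranslated region, exon 19, chr16:32631716-32631732 plus strand: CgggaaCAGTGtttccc

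Such an element was found in the 5′ untranslated region of 31 of 22527 protein-coding genes (0.138%), among them Fth1, Ftl1 and Slc40a1. In the 3′ untranslated region it was found in 144 genes (0.639%), with Tfrc the 1 gene of the 45 that held it. The Tfrc transcript held 4 matches, all in its last exon.

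Nrf2 acts through the antioxidant response element, searched here as TGACNNNGC on both strands of the 250 bases before each gene's start in RefSeq (GRCm38.p6). Promoters were at hand for 38 of the 45 genes. Of these, 8 held a match (21.1%): Nfe2l2, G6pdx, Gclm, Txnrd1, Prdx1, Sod1, Mt2 and Ncoa4, against 3112 of 27025 genes in all (11.5%). A match is a description of the letters and not a measured binding site. The promoters of Txnrd1, Gclm and Prdx1 are shown because these genes hold the same motif and belong to the thioredoxin and glutathione systems described below. Their log2 fold changes were 0.24, 0.06 and -0.23, and 0.33, 0.03 and 0.12 without saline replicate 1. The capitals mark the match, which lies on the opposite strand in each.
Txnrd1, chr10:82858956-82859205 plus strand: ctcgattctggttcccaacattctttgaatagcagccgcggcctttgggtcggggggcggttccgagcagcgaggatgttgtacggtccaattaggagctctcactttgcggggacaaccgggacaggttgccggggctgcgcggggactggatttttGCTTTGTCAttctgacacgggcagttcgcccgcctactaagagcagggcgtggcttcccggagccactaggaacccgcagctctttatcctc
Gclm, chr3:122245307-122245556 plus strand: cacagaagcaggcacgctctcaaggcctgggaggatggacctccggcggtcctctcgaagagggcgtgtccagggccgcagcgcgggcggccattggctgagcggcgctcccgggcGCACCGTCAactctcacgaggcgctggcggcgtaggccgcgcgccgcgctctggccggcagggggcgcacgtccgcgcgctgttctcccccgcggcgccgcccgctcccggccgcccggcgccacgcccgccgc
Prdx1, chr4:116685349-116685598 plus strand: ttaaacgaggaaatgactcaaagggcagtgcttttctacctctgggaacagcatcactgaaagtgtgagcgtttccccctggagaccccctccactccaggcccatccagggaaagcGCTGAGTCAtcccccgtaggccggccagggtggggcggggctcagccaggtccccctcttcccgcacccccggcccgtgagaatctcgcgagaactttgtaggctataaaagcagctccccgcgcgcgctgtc

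None of the 45 genes passed the test between PLEA and saline. At an adjusted p under 0.05 (edgeR quasi-likelihood), 0 were called in either direction, against a background of 0% of the 17584 genes tested, and neither DESeq2 nor limma voom called any of the 45. At an unadjusted p under 0.05, 0 of the 45 were higher in PLEA, with 2.28% of all tested genes. On the lower side there were 2, Slc7a11 and Cat, with 3.58% of all tested genes, or 5.86% in either direction. Groups did not overlap for 1 gene higher in PLEA (Keap1), with a background of 5.16%, and for 3 lower (Slc7a11, Gsta4 and Cat), with a background of 5.54% (10.7% in either direction). These shares of the 45 are near the background.

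The median log2 fold change, PLEA over saline, was -0.07 over the 45 genes and -0.01 over all tested genes. Values were positive for 16 genes and negative for 29. Without saline replicate 1 the median was 0.0018, and at an unadjusted p under 0.05 there were 4 genes higher (Hmox1, Txnrd1, Mt2 and Ftl1) and 0 lower. Of all genes tested at that setting, 2.62% were higher and 3.30% lower, with a median of 0.01. The 95% interval of the fold change lay within 2-fold in both directions for 33 of the 45 genes (73.3%), against 69.7% of all tested genes, and within 1.5-fold for 25 (55.6%, against 43.5%). The 12 genes with wider intervals were Nfe2l2, Osgin1, Hmox1, Blvrb, Slc7a11, Prdx6, Sod3, Gpx1, Gpx3, Mt2, Ftl1 and Slc40a1.

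**Figure D1:**
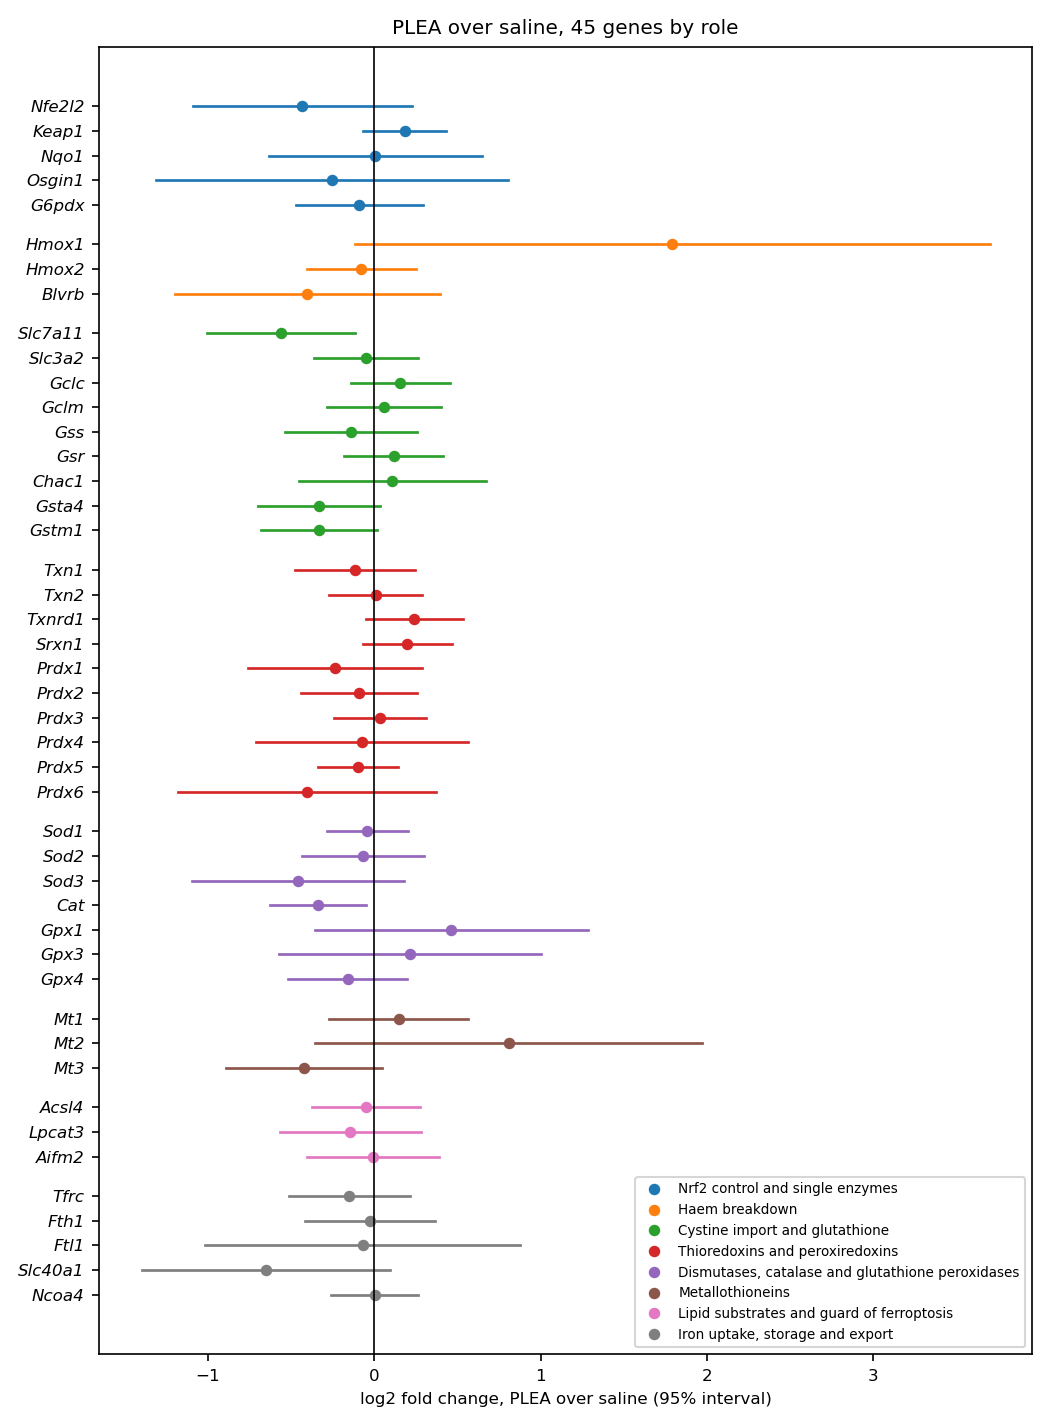
Log2 fold change of each of the 45 genes, PLEA over saline, with its 95% interval from the edgeR quasi-likelihood fit, coloured by role. All intervals but those of Slc7a11 and Cat cross 0, and that of Hmox1 (-0.12 to 3.70) is the widest.

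The control genes of the pathway were measured at moderate levels. Nfe2l2, the gene of Nrf2, was at 20.3, 13.6 and 17.05 CPM in PLEA replicates 1 to 3, against 34.1, 18.1 and 16.6 CPM in saline replicates 1 to 3. The groups overlapped, and saline replicate 1 was the highest library. For Nfe2l2 the log2 fold change was -0.43 (SE 0.29, adjusted p = 0.842), and without saline replicate 1 it was -0.02. Keap1, the adaptor that holds Nrf2 down, was at 47.3, 49.9 and 52.2 CPM in PLEA libraries, against 43.6, 41.7 and 46.2 CPM in saline libraries. Every PLEA library was above every saline library, by a small margin. On the log2 scale the difference was 0.18 (SE 0.11, adjusted p = 0.827), between 0.14 and 0.21 when any 1 library was left out. Keap1 shares 510 exon bases with the opposite-strand gene Gm16754, which averaged 16.3 counts per library against 808 for Keap1.

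Among single Nrf2-responsive enzymes, Nqo1, which reduces quinones, averaged 4.59 ± 1.46 CPM in PLEA libraries and 4.57 ± 0.457 CPM in saline libraries (SD, n = 3 each). G6pdx, the enzyme that opens the pentose phosphate pathway and so supplies NADPH, averaged 32.4 ± 5.87 CPM in PLEA libraries and 34.5 ± 4.23 CPM in saline libraries (SD, n = 3 each). Osgin1 was near 1 CPM, at 0.928 ± 0.275 CPM in PLEA libraries and 1.11 ± 0.506 CPM in saline libraries (SD, n = 3 each). These 3 genes had log2 fold changes of 0.01, -0.09 and -0.26, each smaller than its SE (0.28, 0.17 and 0.46), and Osgin1 had 0.10 without saline replicate 1. G6pdx shares 13.6% of its exon bases with the opposite-strand gene Ikbkg, which averaged 866 counts against 578 for G6pdx, so its values are uncertain.

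Haem breakdown held the gene with the widest spread. Hmox1, the inducible haem oxygenase, which lies at bases 75820249 to 75827217 of chromosome 8 in the deposited table, was at 52.6, 15.1 and 107 CPM in PLEA replicates 1 to 3, against 37.8, 6.24 and 6.34 CPM in saline replicates 1 to 3. Saline replicates 2 and 3 were the lowest libraries, and saline replicate 1 lay among the PLEA libraries, so the groups overlapped. The highest library was 17.1 times the lowest, more than for any of the other genes of the set, where the next, Mt2, had 4.42 times. For Hmox1 the log2 fold change was 1.79 (SE 0.83, adjusted p = 0.818, 95% interval -0.12 to 3.70).

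Leaving out saline replicate 1 put the log2 fold change of Hmox1 at 3.22 (adjusted p = 0.827), and leaving out PLEA replicate 3 put it at 1.01 (adjusted p = 0.999). With saline replicate 1 and PLEA replicate 2 both left out, it was 3.66 (adjusted p = 0.141), so no setting with libraries left out brought it past the threshold. In every one of the 6 fits without 1 library the value was above 0. PLEA replicate 3, the highest library for Hmox1, also had the highest summed choroid plexus markers, 340 CPM, against 12.7 and 38.8 CPM in the other PLEA libraries and 7.80 to 27.6 CPM in saline libraries. Of these 8 markers, Folr1, Kcnj13 and Slc4a5 averaged under 1 CPM. The 6 that were tested did not share a direction, with 3 positive and 3 negative log2 fold changes. Macrophages, which express Hmox1 when they take up haem, had markers at 28.1 to 127 CPM in PLEA libraries and 60.6 to 633 CPM in saline libraries, and 3 of those 10 markers (Ms4a7, Arg1 and Plac8) averaged under 1 CPM. Of the 10, 6 were tested, and at an unadjusted p under 0.05 the count was 0 higher and 3 lower. The part of either list in the Hmox1 values was not tested. Red blood cell markers, haemoglobin genes included, averaged under 1 CPM each and summed to 1.98 to 2.25 CPM in PLEA libraries and 0.751 to 3.57 CPM in saline libraries.

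The constitutive haem oxygenase gene, Hmox2, was at 39.9 to 53.2 CPM in PLEA libraries and 45.3 to 54.8 CPM in saline libraries (log2 fold change -0.08, SE 0.14). Hmox2 shares 40.2% of its exon bases with the opposite-strand gene Cdip1, which averaged 3314 counts against 833 for Hmox2, and no strand setting is given, so its value is uncertain. Blvrb, a biliverdin reductase that acts after haem oxygenase, averaged 3.55 ± 1.44 CPM in PLEA libraries and 4.69 ± 1.06 CPM in saline libraries (SD, n = 3 each), which is -0.40 on the log2 scale (SE 0.35) and -0.22 with saline replicate 1 left out. The inducible enzyme alone had a value above 0 among these 3 genes.

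Cystine import had the smallest p of the set. Slc7a11, the light chain of the cystine-glutamate exchanger, which spans bases 49846975 to 50398063 of chromosome 3 in the deposited table, was at 78.2, 46.2 and 61.9 CPM in PLEA replicates 1 to 3, against 105, 86.9 and 83.1 CPM in saline replicates 1 to 3. Every PLEA library was below every saline library. For Slc7a11 the log2 fold change was -0.56 (SE 0.19, adjusted p = 0.818, 95% interval -1.01 to -0.12), which did not pass. It was -0.44 without saline replicate 1 and -0.28 with PLEA replicate 2, the lowest library, left out as well. The smallest adjusted p for Slc7a11 over the alternatives run was 0.320, without a filter on low counts.

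The partner chain of Slc7a11 did not have the same values. Slc3a2, the heavy chain shared by several amino acid exchangers, averaged 96.7 ± 9.14 CPM in PLEA libraries and 100 ± 13.8 CPM in saline libraries (SD, n = 3 each), a log2 fold change of -0.05 (SE 0.14, 95% interval -0.36 to 0.26), and 0.08 without saline replicate 1. Astrocytes are a main site of Slc7a11 in brain. Their 8 markers summed to 3386 to 4208 CPM in PLEA libraries and 4158 to 5651 CPM in saline libraries, and at an unadjusted p under 0.05 the count was 0 higher and 4 lower. The part of this list in the Slc7a11 values was not tested.

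The enzymes that make and recycle glutathione had small differences. Gclc and Gclm, the catalytic and modifier subunits of the rate-limiting step, differed by 0.16 (SE 0.13) and 0.06 (SE 0.15) on the log2 scale. Gss, which adds glycine in the last step, had -0.14 (SE 0.17), and Gsr, which reduces oxidised glutathione, had 0.12 (SE 0.13). Chac1, which breaks glutathione down and is induced in the unfolded protein response, averaged 4.85 ± 0.737 CPM in PLEA libraries and 4.496 ± 0.823 CPM in saline libraries (SD, n = 3 each). Its log2 fold change was 0.11 (SE 0.25), and -0.02 without saline replicate 1. All 5 had an adjusted p of 0.857 or more, and all of their 95% intervals held 0. Gss shares 395 exon bases with the opposite-strand gene Acss2, which averaged 649 counts per library against 319 for Gss. Gclm matches 287 bases of Ppia at 97.9% identity (4432 to 6991 counts) and 244 bases of Gm10123 at 100% (759 to 3551 counts). The Gclm values are therefore uncertain.

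Both glutathione transferases of the set were lower in mean after PLEA, and neither passed. Gsta4, which conjugates the lipid peroxidation product 4-hydroxynonenal, was at 19.3, 17.8 and 20.1 CPM in PLEA libraries, against 21.8, 29.2 and 21.2 CPM in saline libraries. Every PLEA library was below every saline library, with a gap of about 1 CPM between the nearest libraries. Its log2 fold change was -0.33 (SE 0.16, adjusted p = 0.818), and -0.18 without saline replicate 2. Gstm1, a transferase abundant in astrocytes, was at 143, 132 and 152 CPM in PLEA libraries, against 211, 182 and 145 CPM in saline libraries, with an overlap at saline replicate 3. Its log2 fold change was -0.33 (SE 0.15, adjusted p = 0.818), and -0.19 without saline replicate 1.

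**Figure D2:**
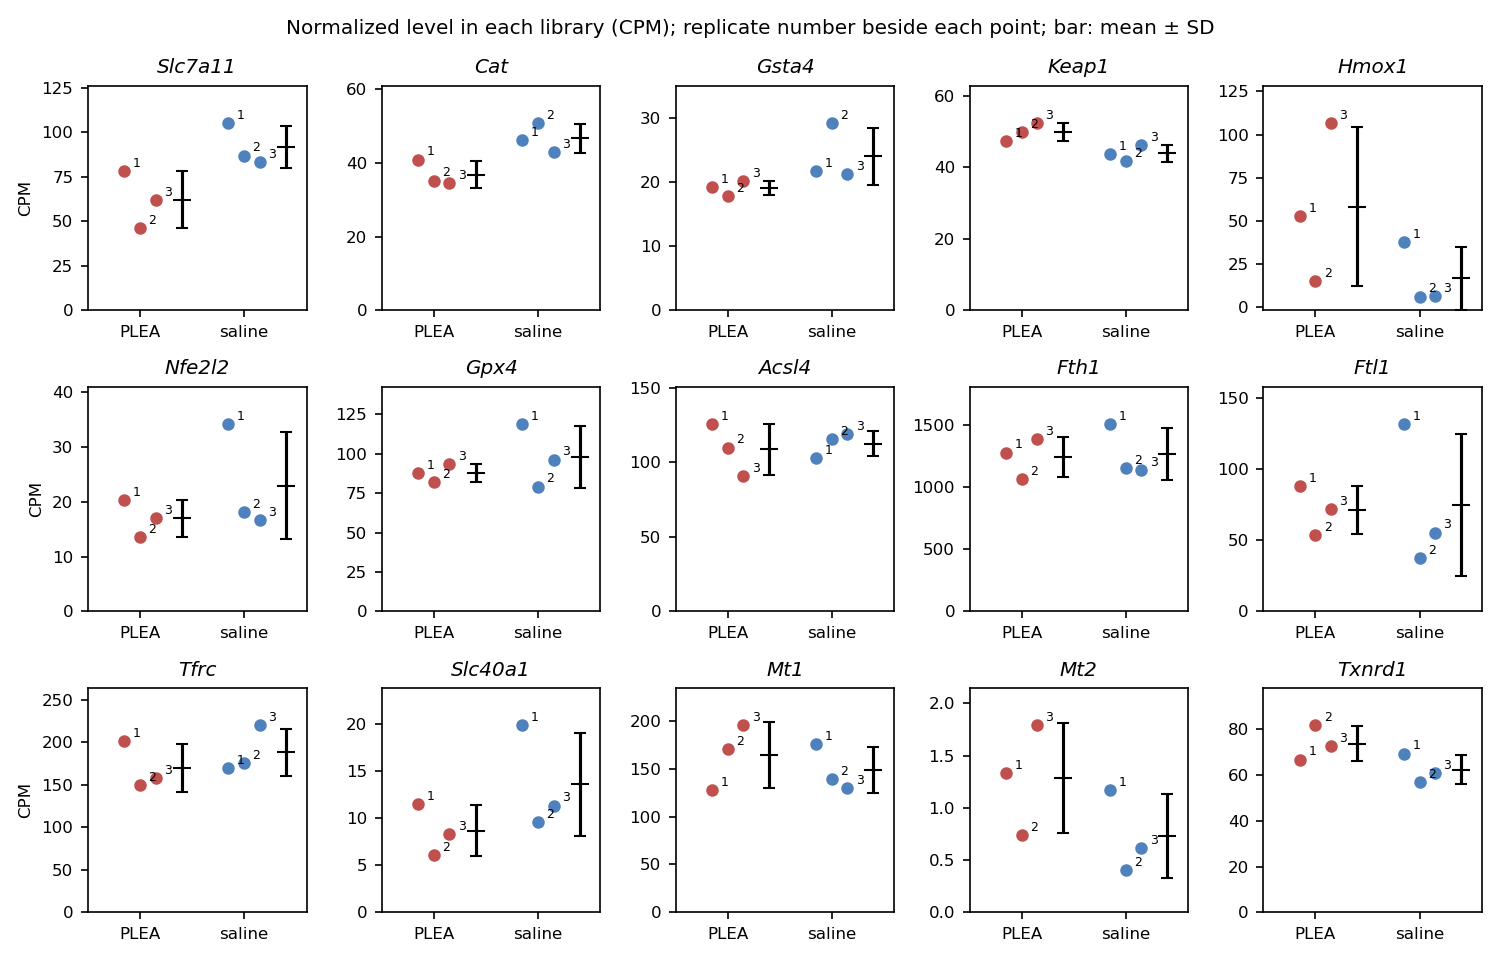
CPM in each library for 15 genes, with PLEA libraries in red and saline libraries in blue, the replicate number beside each point and the mean ± SD (n = 3) as a bar. Slc7a11, Cat, Gsta4 and Keap1 have groups that do not overlap, whereas for Hmox1 saline replicate 1 (37.8 CPM) lies among the PLEA libraries (15.1 to 107 CPM).

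The thioredoxin system reduces protein disulfides and supplies electrons to peroxiredoxins, which remove hydrogen peroxide. Txnrd1, the cytosolic thioredoxin reductase, was at 66.6, 81.5 and 72.7 CPM in PLEA libraries, against 69.2, 56.9 and 60.7 CPM in saline libraries. The groups overlapped at saline replicate 1. On the log2 scale the difference was 0.24 (SE 0.13, adjusted p = 0.818), and 0.33 without saline replicate 1. Srxn1, the sulfiredoxin that repairs over-oxidised peroxiredoxins, averaged 98.3 ± 8.49 CPM in PLEA libraries and 85.6 ± 6.59 CPM in saline libraries (SD, n = 3 each), which is 0.20 on the log2 scale (SE 0.12, adjusted p = 0.827). The thioredoxins themselves differed less, with log2 fold changes of -0.12 (SE 0.16) for the cytosolic Txn1 and 0.01 (SE 0.12) for the mitochondrial Txn2.

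None of the 6 peroxiredoxins passed, and the log2 fold changes of 3 of them changed sign without saline replicate 1. Prdx6, an astrocyte-rich peroxiredoxin that can reduce phospholipid peroxides, was at 195, 99.0 and 123 CPM in PLEA libraries, against 281, 127 and 144 CPM in saline libraries. Prdx1, a cytosolic form and Nrf2 target, was at 103, 93.4 and 98.1 CPM in PLEA libraries, against 165, 85.9 and 96.4 CPM in saline libraries. Prdx4, the form of the endoplasmic reticulum, was at 10.3, 8.67 and 9.34 CPM in PLEA libraries, against 14.6, 7.46 and 7.76 CPM in saline libraries.

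In all 3, saline replicate 1 was the highest library. Prdx6 had -0.41 (SE 0.34), and 0.04 without saline replicate 1. Prdx1 had -0.23 (SE 0.23), and 0.12 without it. Prdx4 had -0.07 (SE 0.28), and 0.32 without it. The other peroxiredoxins varied less between libraries, and the neuron-rich Prdx2 had -0.09 (SE 0.15), the mitochondrial Prdx3 0.04 (SE 0.12) and Prdx5 -0.10 (SE 0.11). Prdx2 also changed sign without saline replicate 3 (0.013) and Prdx3 without PLEA replicate 2 (-0.033). The exons of Prdx2 share 173 bases with Junb and 177 with Rnaseh2a, both on the opposite strand. These averaged 921 and 208 counts, against 1867 for Prdx2, so the Prdx2 values are uncertain. Prdx5 shares 19.1% of its exon bases with the opposite-strand gene Trmt112, which averaged 208 counts against 1487 for Prdx5, so its values are uncertain.

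Among enzymes that act on superoxide and hydrogen peroxide, catalase (Cat), the peroxisomal enzyme at bases 103284194 to 103315505 of chromosome 2 in the deposited table, was at 40.9, 35.1 and 34.4 CPM in PLEA libraries, against 46.1, 50.6 and 42.9 CPM in saline libraries. Every PLEA library was below every saline library. The log2 fold change was -0.34 (SE 0.13, adjusted p = 0.818, 95% interval -0.63 to -0.05), between -0.43 and -0.28 when any 1 library was left out. It was -0.34 without saline replicate 1, so that library did not move it.

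None of the superoxide dismutases passed. Sod1, the cytosolic form, averaged 92.3 ± 2.62 CPM in PLEA libraries and 94.99 ± 6.68 CPM in saline libraries, and Sod2, the mitochondrial form, 197 ± 22.0 CPM in PLEA libraries and 206 ± 37.8 CPM in saline libraries (SD, n = 3 each). Their log2 fold changes were -0.04 (SE 0.11, 95% interval -0.28 to 0.20) and -0.07 (SE 0.16, 95% interval -0.43 to 0.30), and Sod2 had -0.18 without saline replicate 1. Sod2 matches 3110 bases of Rps6ka2 transcripts at 98.2% identity, so its values are uncertain. Sod3, the secreted form held in vessel walls and matrix, had -0.46 (SE 0.28), and -0.16 without saline replicate 1.

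Of the glutathione peroxidases, Gpx4, the enzyme that guards membranes against ferroptosis, was at 87.8, 82.0 and 93.2 CPM in PLEA libraries, against 119, 79.1 and 96.3 CPM in saline libraries. The groups overlapped, with saline replicates 1 and 2 as the highest and lowest libraries. For Gpx4 the log2 fold change was -0.16 (SE 0.16, adjusted p = 0.874, 95% interval -0.52 to 0.20), and 0.01 without saline replicate 1. Reads can be shared with the copy Gpx4-ps2, which matches Gpx4 over 762 bases at 99.7% identity and had 214 to 434 counts, so the Gpx4 values are uncertain. Gpx1, the general cytosolic form, had 0.983 to 2.46 CPM in the 6 libraries, from 17 to 44 counts each. An opposite-strand gene with no symbol in the deposited table covers 84.0% of the Gpx1 span and averaged 0.167 counts. The log2 fold change of Gpx1 was 0.46 (SE 0.36). No strand setting is given, so the Gpx1 values are uncertain. The plasma form Gpx3 averaged 13.7 ± 5.98 CPM in PLEA libraries and 11.8 ± 3.08 CPM in saline libraries (SD, n = 3 each). Its log2 fold change was 0.22 (SE 0.34), and 0.08 without saline replicate 1.

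Metallothioneins, small cysteine-rich proteins that bind zinc and copper and scavenge oxidants, did not share a direction, and none passed. Mt1 was at 128, 170 and 195 CPM in PLEA libraries, against 176, 139 and 130 CPM in saline libraries (log2 fold change 0.15, SE 0.18, adjusted p = 0.898), and had 0.29 without saline replicate 1. Mt3, the form of neurons and brain astrocytes, was at 55.5, 69.1 and 87.1 CPM in PLEA libraries, against 118, 88.2 and 77.9 CPM in saline libraries (log2 fold change -0.42, SE 0.20, adjusted p = 0.818), and had -0.23 without saline replicate 1. The groups overlapped in both genes.

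Mt2, which is usually induced with Mt1, was at 1.33, 0.737 and 1.79 CPM in PLEA libraries, against 1.17, 0.405 and 0.616 CPM in saline libraries. The groups overlapped, with saline replicates 2 and 3 among the lowest libraries. On the log2 scale the difference was 0.81 (SE 0.51, adjusted p = 0.840), and 1.34 without saline replicate 1. Its mean was 17.5 counts per library, and 73.5% of its exon bases are shared with the opposite-strand gene Gm45774, which averaged 11.5 counts per library. Reads from both genes cannot be told apart without strand, so neither the level nor the fold change of Mt2 is certain.

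The genes that supply or guard the lipids oxidised in ferroptosis had log2 fold changes between -0.14 and -0.01, and none passed. Acsl4, which activates the polyunsaturated fatty acids that are later oxidised, was at 125, 110 and 90.9 CPM in PLEA libraries, against 103, 115 and 119 CPM in saline libraries. The groups overlapped throughout. The log2 fold change was -0.05 (SE 0.14, adjusted p = 0.965, 95% interval -0.37 to 0.27). Lpcat3, which places these fatty acids into phospholipids, had -0.14 (SE 0.19), and 0.04 without saline replicate 1, while it shares 10.2% of its exon bases with the opposite-strand gene Emg1 and is uncertain. Aifm2, which encodes the Gpx4-independent suppressor FSP1, had -0.01 (SE 0.17, 95% interval -0.40 to 0.39). It shares 233 exon bases with the opposite-strand gene H2afy2, so its values are uncertain. That gene averaged 359 counts per library, against 152 for Aifm2.

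For iron uptake, the mRNA measured was Tfrc, the transferrin receptor, whose elements in the 3′ untranslated region are printed above. It was at 201, 150 and 158 CPM in PLEA libraries, against 169, 175 and 220 CPM in saline libraries. The groups overlapped, and the log2 fold change was -0.15 (SE 0.16, adjusted p = 0.880, 95% interval -0.51 to 0.22). Ncoa4, the receptor that carries ferritin to lysosomes, averaged 50.9 ± 3.20 CPM in PLEA libraries and 50.7 ± 3.69 CPM in saline libraries (SD, n = 3 each). Its copy Gm6768 matches over 1883 bases at 99.6% identity and had 132 to 169 counts, so its values are uncertain.

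Ferritin is built from heavy and light chains. Fth1, the heavy chain with ferroxidase activity, was at 1275, 1066 and 1382 CPM in PLEA libraries, against 1502, 1150 and 1135 CPM in saline libraries. The groups overlapped. For Fth1 the log2 fold change was -0.02 (SE 0.17, adjusted p = 0.988, 95% interval -0.42 to 0.37). Ftl1, the light chain, was at 88.2, 53.9 and 72.3 CPM in PLEA libraries, against 132, 37.8 and 55.5 CPM in saline libraries. Saline replicate 1 was the highest library for both chains, and saline replicate 2 the lowest for Ftl1.

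For Ftl1 the log2 ratio was -0.07 (SE 0.41, adjusted p = 0.985), and it turned to 0.63 (adjusted p = 0.827) without saline replicate 1 and to 0.78 (adjusted p = 0.978) with PLEA replicate 2 left out too. Fth1 turned to 0.13 without saline replicate 1. Several copies of Ftl1 are annotated. Among them, Gm15590 matches 552 bases at 99.1% with 2 to 6 counts, and Ftl1-ps1 matches 930 bases at 97.3% with 15 to 41 counts. The level of Ftl1 is therefore a count of reads that could be placed.

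Slc40a1, ferroportin, the iron exporter of microglia, macrophages and other cells, was at 11.5, 6.12 and 8.33 CPM in PLEA libraries, against 19.8, 9.60 and 11.3 CPM in saline libraries. The groups overlapped, and PLEA replicate 1 lay above saline replicates 2 and 3. On the log2 scale the difference was -0.65 (SE 0.33, adjusted p = 0.818, 95% interval -1.40 to 0.10), the lowest of the 45, and -0.26 without saline replicate 1. Saline replicate 1 was the highest library for Slc40a1 and PLEA replicate 2 the lowest, as they were for the summed microglia markers (781 and 140 CPM) and macrophage markers (633 and 28.1 CPM). Of the 8 microglia markers, at an unadjusted p under 0.05, 0 were higher and 2 lower. The part of these cells in the Slc40a1 values was not tested.

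Saline replicate 1 was the highest library for 18 of the 45 genes (40.0%), against 21.3% of all tested genes. These 18 were Nfe2l2, Osgin1, Blvrb, Slc7a11, Slc3a2, Gstm1, Txn1, Prdx1, Prdx4, Prdx5, Prdx6, Sod3, Gpx4, Mt3, Lpcat3, Fth1, Ftl1 and Slc40a1. PLEA replicate 2 was the lowest library for 15 genes (33.3%), against 19.1% of all tested genes, and saline replicate 2 for another 15 (33.3%), against 22.2%. PLEA replicate 2 was also the highest library for 7 genes, which were Nqo1, Gclc, Gclm, Gsr, Txnrd1, Srxn1 and Prdx3. These counts are a description, and members were not tested against other genes.

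**Figure D3:**
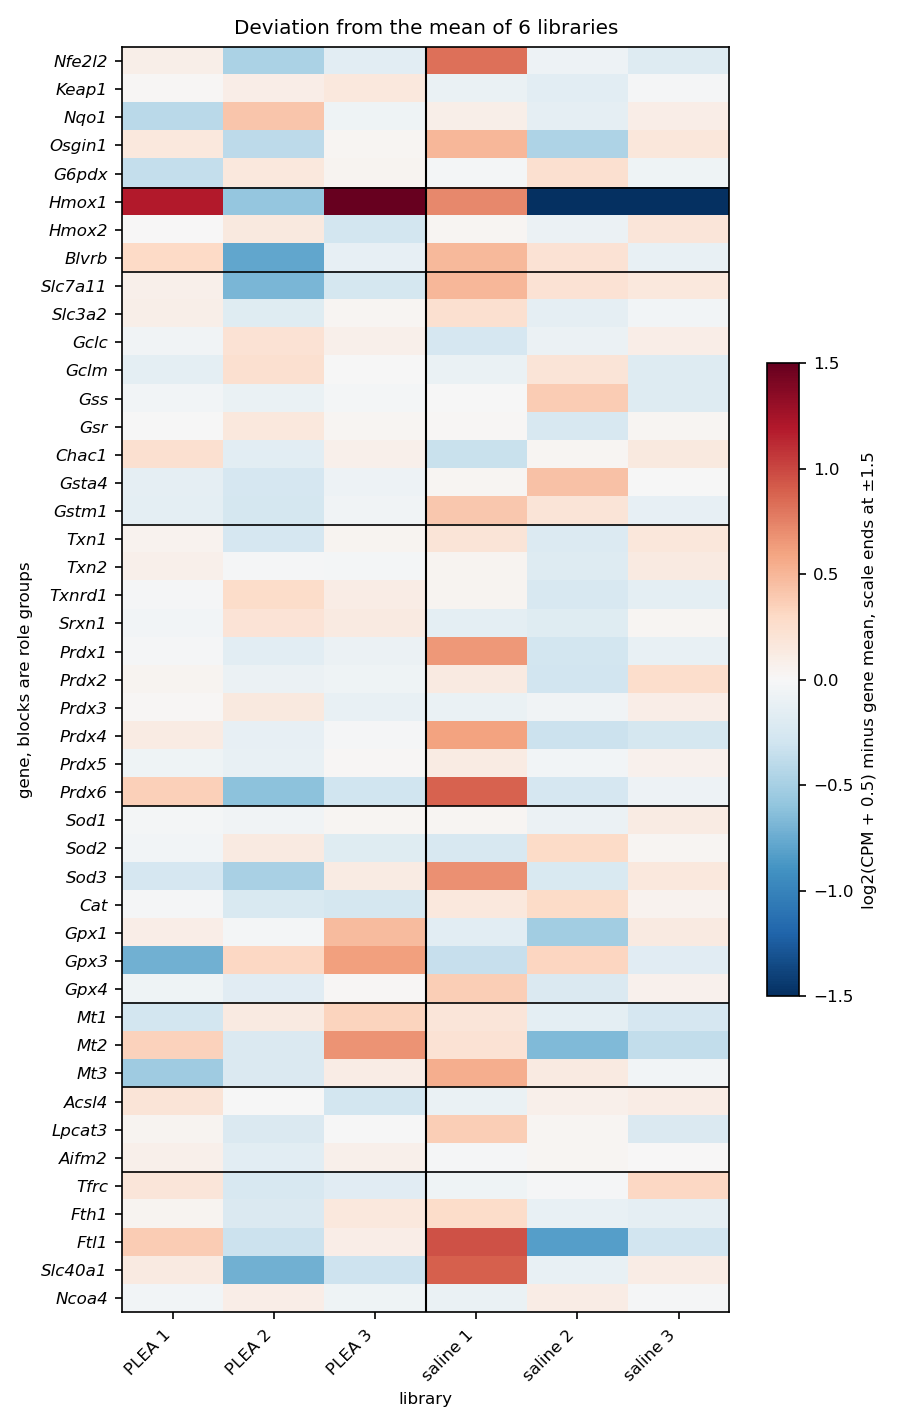
Deviation of each gene from its own mean over 6 libraries, on the log2(CPM + 0.5) scale, with PLEA libraries on the left and saline libraries on the right, and role groups as blocks. The column of saline replicate 1 holds the highest value of Nfe2l2, Prdx1, Prdx4, Prdx6, Sod3, Ftl1 and Slc40a1, and colours beyond ±1.5 are cut off.

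Leaving out any 1 library in turn kept the sign of the log2 fold change in 22 of the 45 genes and turned it at least once in 23. The genes that stayed below 0 in all 6 fits were Nfe2l2, Blvrb, Slc7a11, Gsta4, Gstm1, Txn1, Prdx5, Sod1, Sod3, Cat, Mt3, Tfrc and Slc40a1. Those that stayed above 0 in all 6 were Keap1, Hmox1, Gclc, Gsr, Txnrd1, Srxn1, Gpx1, Mt1 and Mt2. Keeping a sign is no test, since none of these genes passed at any of these settings.

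**Figure D4:**
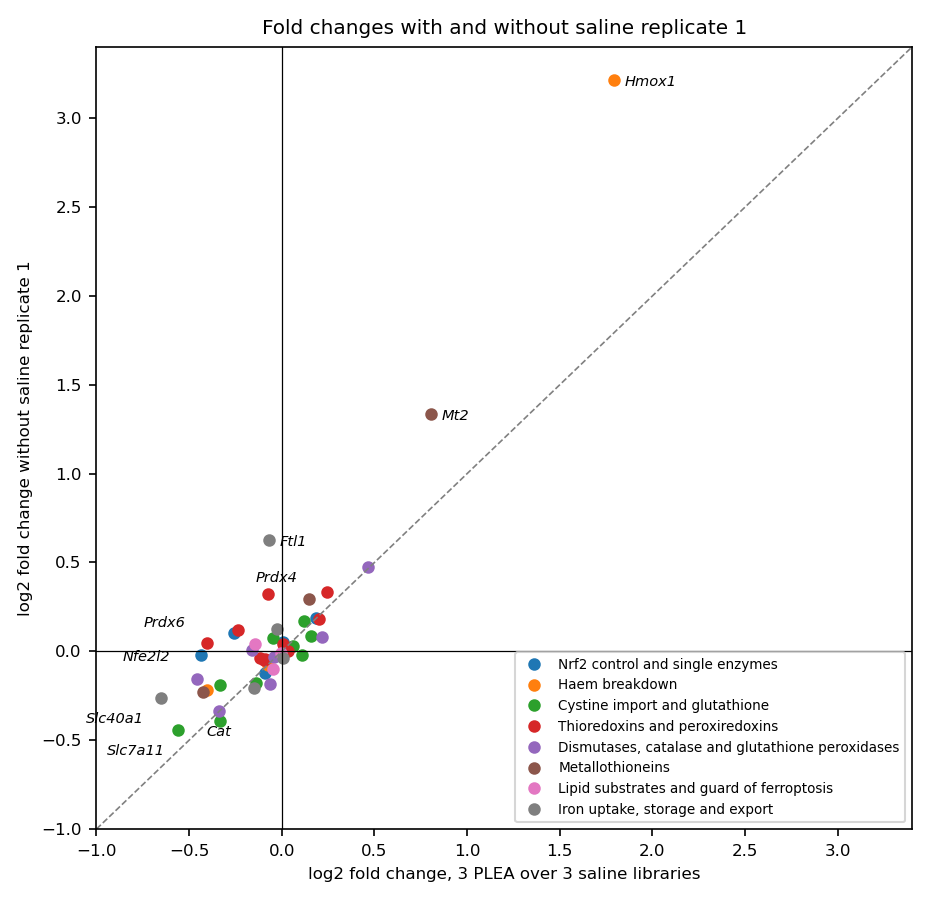
Log2 fold change of each of the 45 genes from 3 PLEA and 3 saline libraries (x axis) and without saline replicate 1 (y axis), coloured by role, with the line of equal values dashed. Hmox1 (1.79 and 3.22) and Ftl1 (-0.07 and 0.63) lie furthest above the line, while Slc7a11 (-0.56 and -0.44) and Cat (-0.34 in both) stay near it.

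Levels between genes were compared per length, as CPM per kilobase of the gene length in the deposited table, averaged over the 6 libraries. Fth1 had the highest level at 361 CPM per kilobase, followed by Mt1 at 125 and Gstm1 at 109. Another 23 genes lay between 10 and 100, and 19 at 10 or less, down to 0.381 for Osgin1. Ftl1, at 54.7 CPM per kilobase, was far below its partner chain Fth1. Reads shared with the copies of Ftl1 may be missing from that level, so the gap is uncertain. Slc7a11, at 5.52 CPM per kilobase, was below its partner chain Slc3a2, at 27.9. Among the peroxiredoxins, Prdx5 had 40.4 CPM per kilobase, followed by Prdx2, Prdx1, Prdx6 and Prdx3, the last at 33.2. Neighbours in that order overlapped over the 6 libraries, and Prdx4 lay below them all at 4.60.

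**Figure D5:**
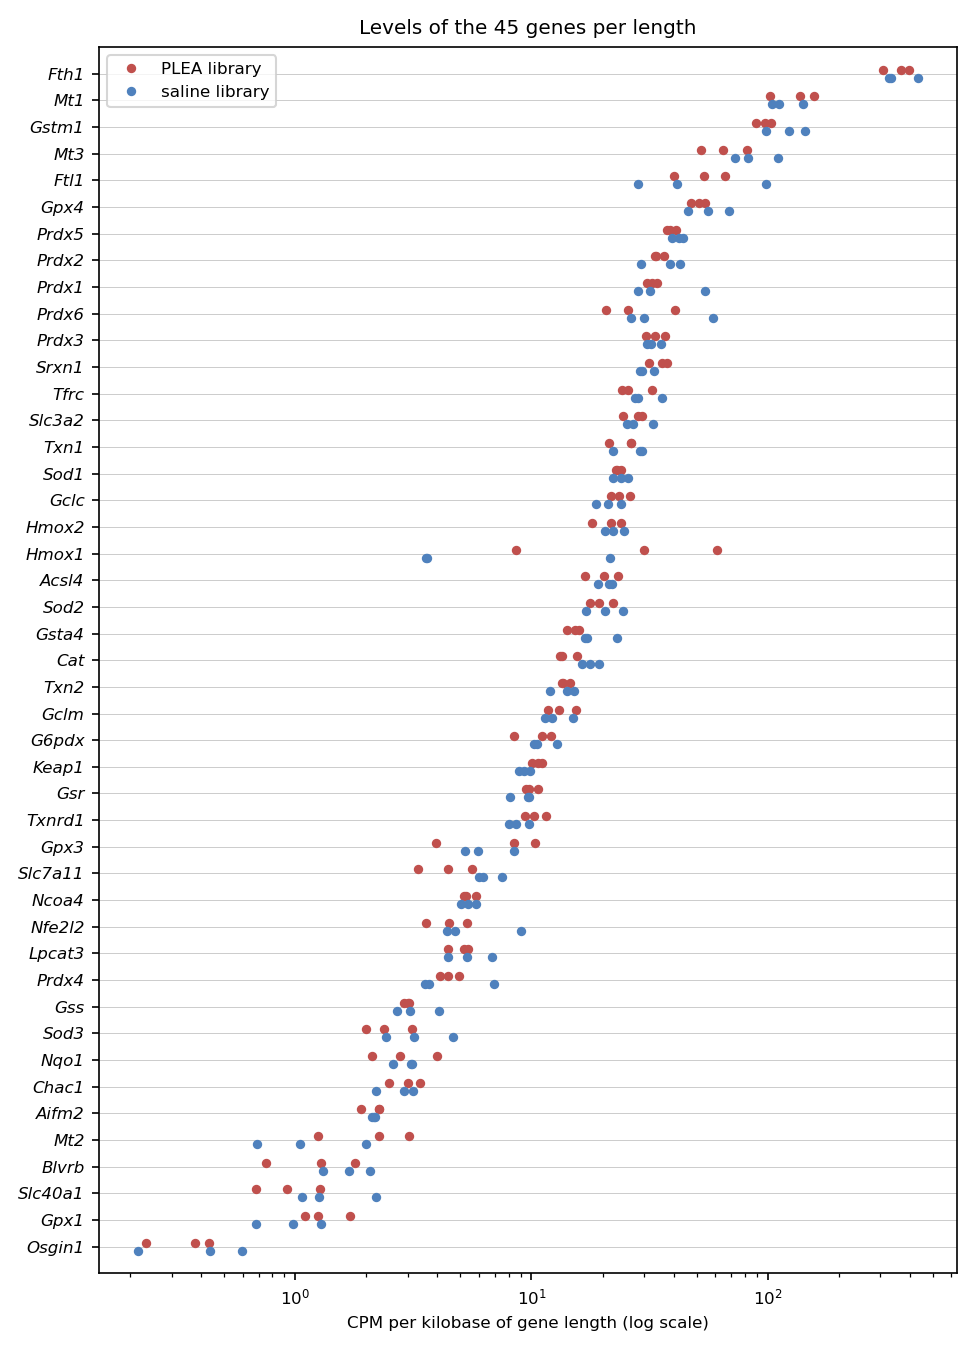
CPM per kilobase of gene length in each library (log scale) for the 45 genes in order of their mean, PLEA libraries in red above saline libraries in blue. Fth1 (361 CPM per kilobase) stands above all other genes, and Hmox1 shows the widest spread between libraries of 1 gene.

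Other genes of the same pathways, in lists outside the 45, gave no call by edgeR in either direction. Of 24 other Nrf2 target genes, 21 were tested, with a median log2 fold change of -0.03, and at an unadjusted p under 0.05 there were 0 higher and 1 lower. That gene, Trim16, a ubiquitin ligase linked to the Nrf2 response, was at 1.39, 0.907 and 1.57 CPM in PLEA libraries, against 2.82, 2.31 and 2.34 CPM in saline libraries (log2 fold change -0.95, SE 0.32, adjusted p = 0.818). Gstm2 and Me1 had the next smallest p in that list, with log2 fold changes of -0.58 (SE 0.38) and -0.28 (SE 0.19).

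Of 27 other glutathione and thioredoxin genes, all were tested, with a median of -0.01, and at an unadjusted p under 0.05 none was higher or lower (0 of 27). The genes with the smallest p were Idh1 and Idh2, which supply NADPH in the cytosol and mitochondria, at -0.27 (SE 0.12) and 0.28 (SE 0.16), and Ggt7 at 0.25 (SE 0.12). Of 21 selenoprotein genes and genes of their synthesis, all were tested, with a median of -0.06, and at an unadjusted p under 0.05 there were 0 higher and 1 lower.

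The lower one was Selenop, the selenium carrier that supplies Gpx4 synthesis in the brain, at 172, 200.2 and 177 CPM in PLEA libraries, against 353, 229 and 209 CPM in saline libraries. Every PLEA library was below every saline library, and the log2 fold change was -0.53 (SE 0.20, adjusted p = 0.818). The next 2 by p in that list, Selenoh and Selenos, had -0.51 (SE 0.24) and 0.26 (SE 0.19).

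Of 30 other ferroptosis genes, 29 were tested, with a median of -0.05, and 1 (Ptgs2) was higher and 1 (Scd1) lower by unadjusted p under 0.05. Scd1, the desaturase that makes monounsaturated fatty acids, was at 154, 142 and 149 CPM in PLEA libraries, against 204, 274 and 216 CPM in saline libraries (log2 fold change -0.64, SE 0.14, adjusted p = 0.818). Ptgs2, the COX-2 gene, used as a marker of ferroptosis and also driven by neuronal activity, had 0.70 (SE 0.15), and Dhodh, a mitochondrial guard against lipid peroxidation, 0.31 (SE 0.15). In each of these 3 genes, given for their small p, the groups did not overlap, and none passed. Of all 29 tested genes of the list, groups did not overlap for 2 higher and 3 lower. Over all tested genes of the data, the shares were 5.16% and 5.54%.

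Of 33 other iron and haem genes, 29 were tested, with a median of -0.09, and by unadjusted p under 0.05 there were 0 higher and 1 lower. The lower one, Bmp6, a signal of iron load to hepcidin in liver, was at 7.63, 5.21 and 7.77 CPM in PLEA libraries, against 11.3, 10.5 and 11.8 CPM in saline libraries (log2 fold change -0.71, SE 0.21, adjusted p = 0.818). Slc39a14, an importer of zinc and of iron not bound to transferrin, had 0.25 (SE 0.11), and Steap3, a ferrireductase, -1.02 (SE 0.52). Steap3 was at 4.85, 2.21 and 4.81 CPM in PLEA libraries, against 14.96, 4.22 and 4.86 CPM in saline libraries, with saline replicate 1 the highest library. Hamp, the hepcidin gene, and the haem and haemoglobin scavengers Hpx and Hp did not pass the filter on low counts.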

How the data were processed

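Extraction used an RNeasy kit, and 1.3 µg of RNA was made into libraries with a SMARTer mRNA kit, per the labels' protocols. The authors deposited raw read counts per gene for 6 libraries, with gene length in bases beside them. Which aligner, counter or strand setting was used is not given in the sources used here. GRCm38 and mm10 are the builds listed, per the submitters' processing notes, but only 1 of the 45 genes had the same coordinates as in GENCODE M21 (GRCm38), so coordinates from the deposited table carry no build, and sequences carry GRCm38. Groups follow the titles. Since separate animals are not stated for the replicates, the p-values reflect only how far these samples spread, which may be technical. Libraries differed beyond sampling noise and each counted as 1 sample.

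The deposited counts went into edgeR 4.0.16 (R 4.3.3), with filterByExpr, TMM factors, group as single term, the quasi-likelihood F test and Benjamini-Hochberg adjustment over 17584 genes. Where no tool is named, an adjusted p comes from that test. Each SE is the log2 fold change over the root of its F value, and 95% intervals use the test's degrees of freedom. The members and lists were chosen with earlier results of these data known. Given in full were members at an unadjusted p under 0.05 or without overlap of groups, and 8 that stand for their roles (Nfe2l2, Hmox1, Slc7a11, Gpx4, Acsl4, Fth1, Tfrc and Mt2). Other lists gave the 3 genes with the smallest p at a mean of at least 1 CPM. Alternatives were DESeq2 1.42.0, limma voom 3.58.1, RLE factors, 2 other filters, a replicate block and leaving out libraries. Copies were searched with BLASTN 2.17.0 among GENCODE M21 transcripts (at least 97% identity over 100 bases). Shared exon bases are from GENCODE M21.

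On simulated data for this comparison (17277 genes, 200 changed), recovery by edgeR was 0% at a 1.5-fold change, 32.0% at 2-fold and 75.4% at 4-fold. In the smallest library, 10 CPM stood for about 162 counts. Intervals cover only these libraries.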

Additional observations from a re-analysis of the deposited data

How the results depend on the processing

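No gene of the 45 was called under any alternative. The median log2 fold change of the 45 was between -0.09 and -0.06 in the fits with all libraries and between -0.11 and 0.0018 with 1 library left out. Over all genes, DESeq2 called 4 higher and 37 lower and a fit with no filter on low counts 7 higher and 31 lower, against 0 in edgeR. On the simulated data, 49 of 155 DESeq2 calls fell on unchanged genes, against 6 of 82 calls by edgeR. Those counts were drawn gene by gene, with the spread that edgeR itself had estimated. They therefore cannot show which calls on the real data are right. At an unadjusted p under 0.05, the 45 gave 1 higher and 5 lower with no filter (13.3%, against 6.19% of all genes tested there). Whether the replicate numbers pair the samples could not be decided from 3 libraries per group. Deviations from group means had correlations of 0.373, 0.173 and -0.0176 in same-numbered libraries, and of -0.358 to 0.23 in the other pairs. At an unadjusted p under 0.05, the replicate block gave 1 higher and 4 lower (11.1%, against 7.77% of all genes). With 1 library left out, all genes called lower were 0 to 1, the 45 gave, at an unadjusted p under 0.05, 0 to 4 higher and 0 to 5 lower (2.22% to 11.1%, against 2.58% to 9.19% of all genes), and 7 to 11 had groups that did not overlap (15.6% to 24.4%, against 15.8% to 28.5% of all genes), where fewer libraries had to separate. Leaving out saline replicate 1 and PLEA replicate 2 together, chosen after seeing the data, gave 1 gene called lower over all genes. At an unadjusted p under 0.05 the 45 then gave 3 higher and 0 lower (6.67%, against 4.63% of all genes), with 15 without overlap (33.3%, against 33.2% of all genes) and a median of 0.04.

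Signs turned mostly in values near 0, and the cause was not tested. DESeq2 gave Nqo1 -8.2e-05 and Ncoa4 -0.0018, RLE factors Nqo1 -0.00035 and Ncoa4 -0.0017, limma voom Nqo1 -0.034 and Ftl1 0.11, no filter Nqo1 -0.013, Txn2 -0.0057 and Ncoa4 -0.011, and the replicate block Nqo1 -0.031 and Ftl1 0.10. Without saline replicate 1 and PLEA replicate 2, the turned values were Nfe2l2 0.11, Nqo1 -0.23, Osgin1 0.31, Blvrb 0.039, Slc3a2 0.14, Gclm -0.091, Txn1 0.051, Prdx1 0.14, Prdx3 -0.075, Prdx4 0.37, Prdx6 0.23, Gpx3 -0.0042, Gpx4 0.047, Lpcat3 0.11, Aifm2 0.060, Fth1 0.22, Ftl1 0.78 and Ncoa4 -0.10.

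With 1 library left out, these 23 genes had values on both sides of 0: Nqo1 -0.27 to 0.19, Osgin1 -0.57 to 0.10, G6pdx -0.20 to 0.040, Hmox2 -0.17 to 0.031, Slc3a2 -0.13 to 0.078, Gclm -0.054 to 0.18, Gss -0.27 to 0.035, Chac1 -0.022 to 0.22, Txn2 -0.086 to 0.069, Prdx1 -0.42 to 0.12, Prdx2 -0.24 to 0.013, Prdx3 -0.033 to 0.10, Prdx4 -0.25 to 0.32, Prdx6 -0.75 to 0.044, Sod2 -0.18 to 0.073, Gpx3 -0.080 to 0.52, Gpx4 -0.30 to 0.0095, Acsl4 -0.17 to 0.065, Lpcat3 -0.29 to 0.040, Aifm2 -0.057 to 0.073, Fth1 -0.11 to 0.13, Ftl1 -0.40 to 0.63 and Ncoa4 -0.049 to 0.056.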
